A study of Mus musculus with 9 samples.

Results

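The miR-181 family was measured at postnatal day 28 in C57BL6 mice, in primary visual cortex. Its members are mmu-miR-181a, mmu-miR-181b, mmu-miR-181c and mmu-miR-181d (written below without the species prefix), 4 of the 611 mouse miRNA names on the arrays, taken by name and without the opposite strands whose names end in an asterisk. The arrays came from 3 groups of 3 samples. Control mice grew up under a normal light cycle, dark-reared mice lived in complete darkness from birth, and monocularly deprived mice had a normal light cycle until the lid of 1 eye was sutured at postnatal day 24, 4 days before collection. In the monocularly deprived group the cortex opposite the sutured eye was taken. The labels name no transgene or drug in any group and do not say whether a sample was 1 animal or a pool, so the replicates may be technical, and each p-value speaks only of the spread among these 9 samples.

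A miRNA is a short RNA that guides Argonaute proteins to messenger RNAs, mainly by pairing of its seed, bases 2 to 8, and lowers their translation and stability. In rat hippocampal neurons miR-181a represses the AMPA receptor subunit GluA2 and reduces dendritic spines. AMPA receptors carry most fast excitatory transmission in the cortex, and visual deprivation is known to change their number at synapses, so the comparisons ask whether the family's levels differ after loss of vision through both eyes or through 1 eye.

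The mature sequences are shown because all 4 members share a seed and differ only in the bases after it. They are the RefSeq sequences (GRCm38.p6), 5′ to 3′, with the seed in capitals.
miR-181a: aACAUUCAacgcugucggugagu
miR-181b: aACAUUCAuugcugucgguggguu
miR-181c: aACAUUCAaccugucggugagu
miR-181d: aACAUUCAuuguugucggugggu
Among 1679 mouse mature names in RefSeq, 4 carried this seed, and they were the 4 members. Counted from 1 at the 5′ end of the first miRNA named, miR-181a and miR-181b differ by A9U, C10U and A21G, apart from 1 more base at the 3′ end of miR-181b. miR-181b and miR-181d differ by C12U alone, again apart from that last base. miR-181c equals miR-181a with 1 base deleted, at position 11.

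The family is transcribed as 3 pairs of neighbouring hairpins. The hairpins of miR-181a-1 (chr1:137966455-137966541) and miR-181b-1 (chr1:137966639-137966718) lie on the plus strand with 97 bases between them, and neither overlaps another annotated gene. Those of miR-181a-2 (chr2:38852735-38852810) and miR-181b-2 (chr2:38853830-38853918) lie 1019 bases apart on the plus strand, within the intervals of Nr6a1, a protein-coding gene, and Nr6a1os, a long noncoding RNA gene. Those of miR-181c (chr8:84178873-84178961) and miR-181d (chr8:84178716-84178787) lie on the minus strand with 85 bases between them and overlap no other annotated gene. Since miR-181a and miR-181b each come from 2 loci with 1 mature sequence, the arrays cannot assign their signal to chromosome 1 or 2.

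Each member was read by 2 probes that differ by 1 base in length, over 20 spots per array. The probes of miR-181a and miR-181d are shown because their shorter and longer forms gave different results between groups. They are written 5′ to 3′ from the array files, with the base added in the longer probe in capitals.
miR-181a, 13 bases: actcaccgacagc
miR-181a, 14 bases: actcaccgacagcG
miR-181d, 16 bases: acccaccgacaacaat
miR-181d, 17 bases: acccaccgacaacaatG
The probes of miR-181b had 13 and 14 bases and those of miR-181c 18 and 19. The 13-base probe of miR-181a pairs with bases 11 to 23 of the miRNA, outside the seed. None of the 8 probes was fully complementary to another mature mouse miRNA, but several were close to a relative. The 13-base probe of miR-181a had 1 mismatch to miR-181b and 1 to miR-181c. The probes of miR-181b had 1 mismatch to miR-181d, and its 13-base probe also had 1 to miR-181a. The probes of miR-181d had 1 mismatch to miR-181b. Signal from a relative in a probe was not tested.

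Levels are log2 intensities after division by each array's 75th percentile, so that 0 marks that percentile. They are compared between arrays and never between miRNAs, since probes differ in brightness. All 4 members were detected on all 9 arrays. The monocularly deprived arrays had a slide and a scan of their own, apart from the slide that carried both other groups, so slide and monocular deprivation cannot be told apart. Control and dark-reared arrays also occupied different rows of their slide. Precision is limited by having 3 arrays per group. Between spots of 1 probe on 1 array the coefficient of variation was 0.869% to 15% over the members' probes, with a median of 3.80%. In a piece of cortex, fewer cells of a type and less miRNA per cell cannot be told apart.

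miR-181a, the member tied to GluA2 in rat neurons, had its lowest levels in the monocularly deprived samples. The control arrays read 0.23, 0.39 and 0.22, the dark-reared arrays 0.29, 0.54 and 0.28, and the monocularly deprived arrays 0.11, 0.05 and 0.15. The group means were 0.28 ± 0.10, 0.37 ± 0.14 and 0.11 ± 0.05 (SD, n = 3 each). All 3 monocularly deprived arrays lay below all the others, while control and dark-reared arrays overlapped. Replicate 2 was the highest array in both of those groups, and these were the arrays with the lowest scaling intensity, 492 in control and 401 in dark-reared against 601 to 1022 on the other 7. The part of array brightness in this was not tested.

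miR-181b, which shares both precursor loci with miR-181a, did not separate the groups. It read -1.47, -1.28 and -1.40 in control, -1.61, -1.14 and -1.46 in dark-reared and -1.31, -1.51 and -1.28 in monocularly deprived cortex. The means of -1.38 ± 0.10, -1.40 ± 0.24 and -1.37 ± 0.12 lay closer together than the arrays within any group. The dark-reared arrays spanned the whole range of the other 6.

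miR-181c, known in rat heart cells for acting on a mitochondrial transcript, was higher on each dark-reared array than on any control array. Control arrays read -0.72, -0.75 and -0.76, and dark-reared arrays -0.58, -0.59 and -0.65. Monocularly deprived arrays read -0.74, -0.49 and -0.76, with replicate 2 above all other arrays and the other two near the control values. The means were -0.74 ± 0.02, -0.61 ± 0.04 and -0.66 ± 0.15.

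miR-181d, encoded beside miR-181c and studied mostly in human glioma, was lowest on the monocularly deprived arrays. It read -2.61, -2.40 and -2.63 in control, -2.62, -2.41 and -2.53 in dark-reared and -2.70, -2.67 and -2.68 in monocularly deprived cortex. The means were -2.55 ± 0.13, -2.52 ± 0.10 and -2.68 ± 0.02. The 3 monocularly deprived arrays again lay below all the others, and control and dark-reared arrays overlapped.

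**Figure D1:**
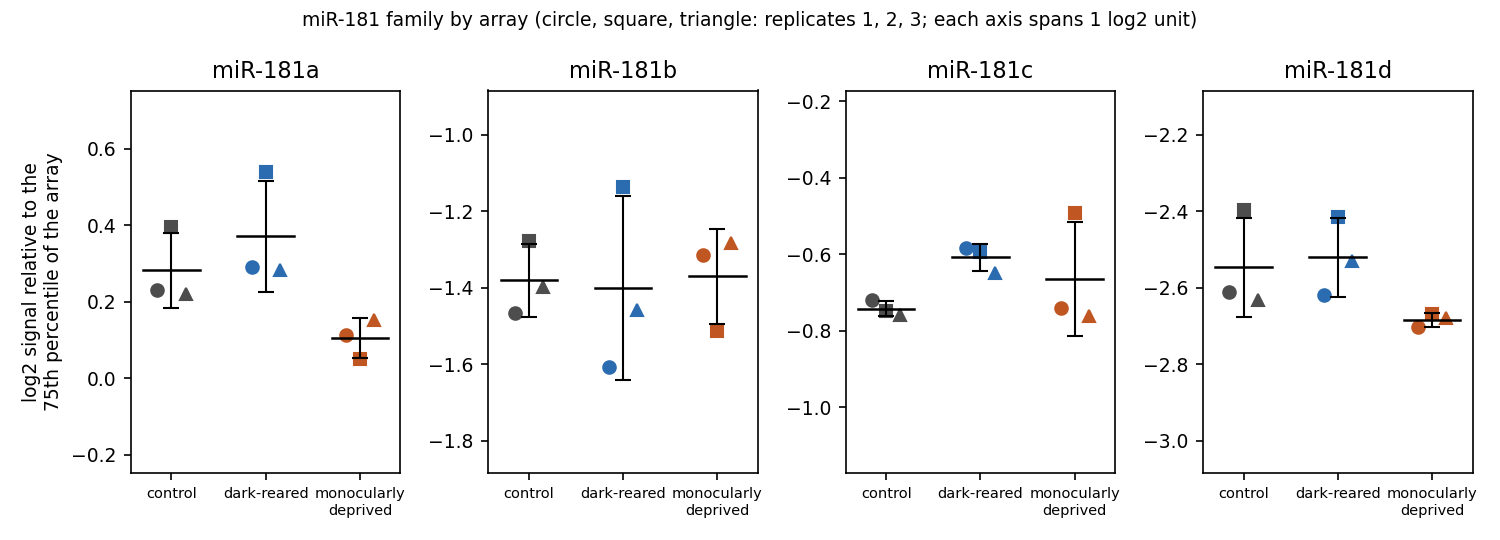
Log2 scaled signal of each member, with 0 at the 75th percentile of its array (vertical axis, 1 log2 unit per panel) in control, dark-reared and monocularly deprived cortex, with each array as a point, the mean as a line and the SD as a bar. The monocularly deprived arrays lie below all others for miR-181a (0.05 to 0.15) and miR-181d (-2.70 to -2.67), and the groups overlap throughout for miR-181b.

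The opposite strands of the miR-181a hairpins were also on the arrays. The strand miR-181a-1* was detected on all 9, at -3.60 ± 0.12 in control, -3.51 ± 0.18 in dark-reared and -3.59 ± 0.10 in monocularly deprived cortex. Its log2 changes against control were 0.09 (SE 0.113, limma adjusted p = 0.797) after dark rearing and 0.01 (adjusted p = 0.963) after monocular deprivation. The strand miR-181a-2* was detected on no array, and its 4 probes reach 3 bases past the 3′ end that RefSeq gives for it.

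Dark rearing changed no member past the threshold. In the linear model of limma, fitted to all 318 mouse miRNAs detected on every array of at least 1 group, a change was called at an adjusted p under 0.05 (Benjamini-Hochberg). At that threshold 0 of 4 members and 0.629% of all miRNAs tested were called for dark-reared minus control, and 0 members, against 8.81% of all, had an unadjusted p under 0.05. The log2 changes were 0.09 for miR-181a (SE 0.096, limma adjusted p = 0.788) and -0.02 for miR-181b (SE 0.131, adjusted p = 0.942). They were 0.13 for miR-181c (SE 0.088, limma adjusted p = 0.636) and 0.03 for miR-181d (SE 0.091, adjusted p = 0.921). miR-181c was the 1 member whose groups did not overlap, against 18.6% of all miRNAs tested. The median change was 0.06 over the members and 0.05 over all miRNAs tested. The 95% intervals of the 4 members reached at most 1.25-fold lower and 1.26-fold higher than control under this scaling.

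Monocular deprivation also changed no member past the threshold, in a comparison where many other miRNAs passed. Of the 4 members 0 were called for monocularly deprived minus control, with 33% of all miRNAs called, and 0, against 43.4% of all, had an unadjusted p under 0.05. miR-181a had a log2 change of -0.18 (SE 0.096, limma adjusted p = 0.187, 95% interval -0.40 to 0.04) and miR-181d of -0.14 (SE 0.091, adjusted p = 0.271). miR-181b stood at 0.01 (SE 0.131, limma adjusted p = 0.962) and miR-181c at 0.08 (SE 0.088, adjusted p = 0.507). For miR-181a and miR-181d the groups did not overlap, which held for 52.8% of all miRNAs tested. The median was -0.06 over the members and 0.08 over all miRNAs. The intervals reached at most 1.32-fold lower and 1.24-fold higher.

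The lowest p-value in the family belonged to miR-181a between the 2 kinds of deprivation. Its log2 change for monocularly deprived minus dark-reared was -0.27 (SE 0.096, 95% interval -0.49 to -0.05), with an unadjusted limma p of 0.0237 and an adjusted p of 0.0717. It was called with the mean of log2 probe values (-0.36, limma adjusted p = 0.0246) and with the scanner software's total gene signal (-0.33, adjusted p = 0.0382). Here 0 of 4 members were called, against 28.6% of all miRNAs, and 1 had an unadjusted p under 0.05, against 43.1%. miR-181d stood at -0.16 (limma adjusted p = 0.213), miR-181c at -0.06 (0.655) and miR-181b at 0.03 (0.865). miR-181a and miR-181d were the 2 members whose groups did not overlap, against 46.5% of all miRNAs. This comparison shares its arrays with the other two and adds no independent samples.

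**Figure D2:**
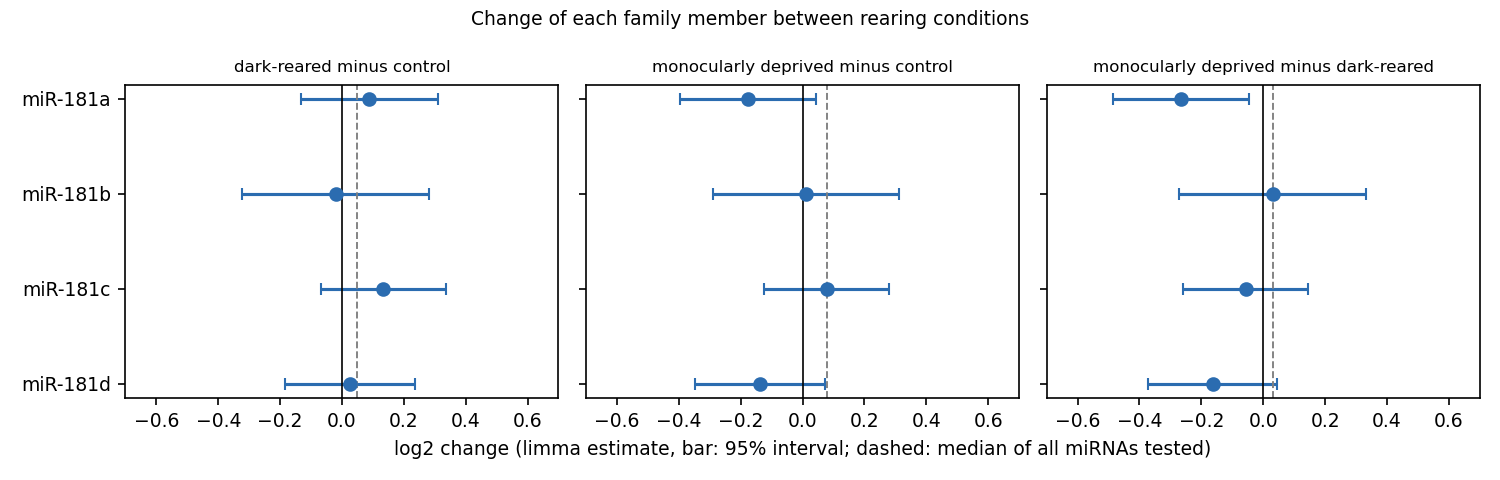
Log2 change of each member (horizontal axis) in the 3 comparisons, as limma's estimate with its 95% interval, and the median of all 318 miRNAs tested as a dashed line. Of the 12 intervals, 1 leaves out 0, that of miR-181a for monocularly deprived minus dark-reared (-0.49 to -0.05).

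The scaling set the sign of several of these changes. With the 75th percentile taken over all miRNA probes, the median of all miRNAs tested moved to 0.62 for monocularly deprived minus control and 0.70 for monocularly deprived minus dark-reared. Under that scaling miR-181b (0.56, limma adjusted p = 0.0323) and miR-181c (0.63, adjusted p = 0.00997) were called higher than control, and miR-181a and miR-181d turned positive (0.38 and 0.41). Relative to the median of all miRNAs, miR-181a was at -0.25 under the first scaling and at -0.24 under the second, and miR-181c at 0.01 under the second. That relative value of miR-181a was not stable to the background correction: it was 0.27 with normexp, where the median of all miRNAs was -0.42. Ratios between members on 1 array do not depend on the scaling and are given next.

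Within arrays, some ratios between members did not overlap between groups. With 3 against 3 arrays no exact test of a ratio could give a p under 0.05, so these values are descriptions. The log2 ratio of miR-181a over miR-181b was 1.70, 1.67 and 1.62 on control arrays, 1.90, 1.67 and 1.74 on dark-reared arrays and 1.43, 1.56 and 1.44 on monocularly deprived arrays. All 3 monocularly deprived arrays were below the other 6. The mean ratio differed by -0.19 from control and by -0.30 from dark-reared arrays (exact permutation test, 2-sided, p = 0.1 each, the smallest that 3 against 3 arrays can give, and 0.45 adjusted over 18 tests). With normexp background correction these differences were 0.02 and -0.10, so the first turned sign.

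For miR-181a over miR-181c the log2 ratio was 0.95, 1.14 and 0.98 in control and 0.85, 0.54 and 0.91 in monocularly deprived cortex, a difference of -0.25 without overlap. For miR-181c over miR-181d it was 1.89, 1.65 and 1.87 in control and 1.96, 2.18 and 1.92 in monocularly deprived cortex, a difference of 0.22 without overlap. The other 3 of the 6 ratios overlapped between these groups. Among single miRNAs 52.8% of those tested did not overlap in this comparison. No share over ratios of other miRNA pairs is given here, and the 6 ratios share 4 members, so they are not independent. Between dark-reared and control cortex all 6 ratios overlapped as groups. Within the pairs of same-numbered arrays, 4 of the 6 ratios differed in 1 direction in all 3 pairs, with mean differences for dark-reared minus control of 0.11 for miR-181a over miR-181b, -0.04 for miR-181a over miR-181c, -0.15 for miR-181b over miR-181c and 0.11 for miR-181c over miR-181d. Their smallest pair differences were 0.0014, -0.011, -0.013 and 0.0066. Each had an exact sign-flip p of 0.25 (2-sided), the smallest that 3 pairs can give. This pairing was added after the data had been seen and is unclear for replicate 2. With the brighter probe of each member alone, 1 of 6 ratios did not overlap between monocularly deprived and control arrays, and with normexp background correction 0 of 6 did.

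The 2 probes of a member did not move alike in the monocularly deprived samples. This was seen in a fit to single probes, added after the data had been seen, over 428 mouse probes well above background on all 9 arrays. For dark-reared minus control 0 of the 8 member probes were called, with 0.935% of all probes called, and the smallest limma adjusted p was 0.613. For monocularly deprived minus control 2 of 8 were called, both lower and both the shorter probe of their miRNA, against 30.6% of all probes called in either direction and 13.1% called lower. For monocularly deprived minus dark-reared the same 2 of 8 were called, against 24.1% in either direction and 12.9% lower.

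The 13-base probe of miR-181a read -0.80, -0.65 and -0.86 in control, -0.80, -0.57 and -0.82 in dark-reared and -1.23, -1.43 and -1.14 in monocularly deprived cortex. All 3 monocularly deprived arrays were well below the other 6. The log2 change was -0.50 against control (SE 0.106, limma adjusted p = 0.00749) and -0.53 against dark-reared cortex (adjusted p = 0.0065). The 14-base probe, longer by 1 base, read 0.83, 0.99 and 0.83 in control, 0.91, 1.16 and 0.90 in dark-reared and 0.79, 0.76 and 0.82 in monocularly deprived cortex. The monocularly deprived arrays were again the lowest, by a much narrower gap, and the log2 changes were -0.09 (SE 0.091, limma adjusted p = 0.489) and -0.19 (adjusted p = 0.155).

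The 16-base probe of miR-181d read -3.30, -3.07 and -3.32 in control, -3.36, -3.29 and -3.31 in dark-reared and -3.67, -3.75 and -3.60 in monocularly deprived cortex. The monocularly deprived arrays were again below the other 6. The log2 change was -0.44 against control (SE 0.087, limma adjusted p = 0.00595) and -0.36 against dark-reared cortex (adjusted p = 0.0178, and 0.0602 without monocularly deprived replicate 1). The 17-base probe read -2.14, -1.94 and -2.17 in control, -2.13, -1.87 and -2.03 in dark-reared and -2.13, -2.06 and -2.12 in monocularly deprived cortex. Its groups overlapped in both comparisons, with log2 changes of -0.02 (limma adjusted p = 0.911) and -0.09 (adjusted p = 0.494).

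Neither call of a shorter probe held under every scaling or background correction. With scaling on all miRNA probes the 13-base probe of miR-181a turned to 0.05 against control and 0.15 against dark-reared cortex, and the 16-base probe of miR-181d to 0.11 and 0.32. Without scaling and with normexp 0 of the 8 probes were called in either comparison. Relative to the median of all probes, the shorter probe of miR-181a was at -0.58 against control with scaling on all miRNA probes and that of miR-181d at -0.53.

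**Figure D3:**
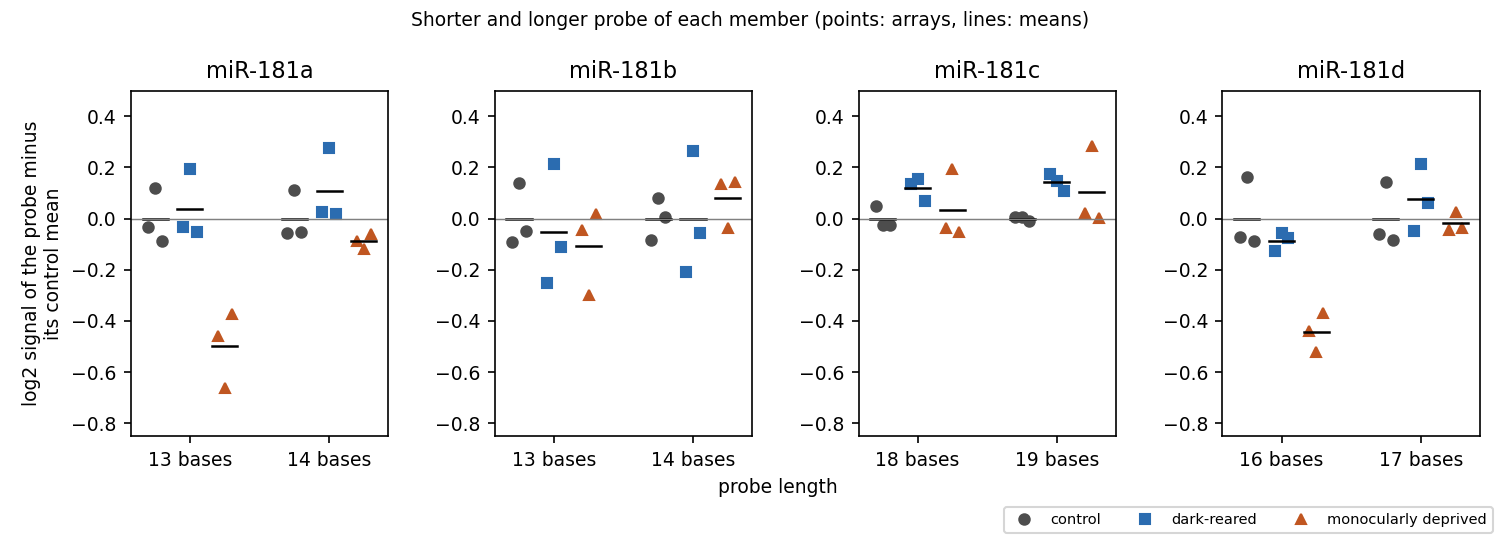
Log2 signal of the shorter and the longer probe of each member (horizontal axis, probe length in bases) minus the probe's own control mean, with each array as a point and group means as lines. In the monocularly deprived samples the shorter probes of miR-181a and miR-181d lie 0.50 and 0.44 below control, while their longer probes lie 0.09 and 0.02 below it.

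The gap between the longer and the shorter probe does not depend on the scaling, and it was wider in monocularly deprived cortex for every member. For miR-181a it was 1.63, 1.64 and 1.69 log2 units in control, 1.71, 1.73 and 1.72 in dark-reared and 2.02, 2.19 and 1.97 in monocularly deprived cortex. For miR-181d it was 1.16, 1.13 and 1.15, then 1.23, 1.41 and 1.28, then 1.54, 1.70 and 1.48. For both members the 3 groups stood in the same order without overlap.

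Against control the gap was wider in monocularly deprived cortex by 0.41 for miR-181a, 0.19 for miR-181b, 0.07 for miR-181c and 0.43 for miR-181d. For all 4 members these groups did not overlap, which held for 71.4% of all miRNAs with 2 measured probe lengths. Each member had an exact permutation p of 0.1 (2-sided), the smallest possible, and 0.12 adjusted over 12 tests. In dark-reared minus control the gap did not overlap for 2 members, miR-181a (0.07) and miR-181d (0.16), against 24.9% of all. In monocularly deprived minus dark-reared it did not overlap for the 4 members, against 51.4% of all.

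The same widening ran through the arrays. Over 185 miRNAs with probes of different length, the median difference between monocularly deprived and control arrays was 0.12, with 167 above 0. Among these 185, miR-181d ranked 17 from the widest, miR-181a 19, miR-181b 64 and miR-181c 129. The upper quartile began at 0.23, so miR-181a and miR-181d lay inside it and the other two did not. Between dark-reared and control arrays, which shared a slide, the median was 0.04, with 145 above 0. Slide and monocular deprivation cannot be told apart as sources of this gap.

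**Figure D4:**
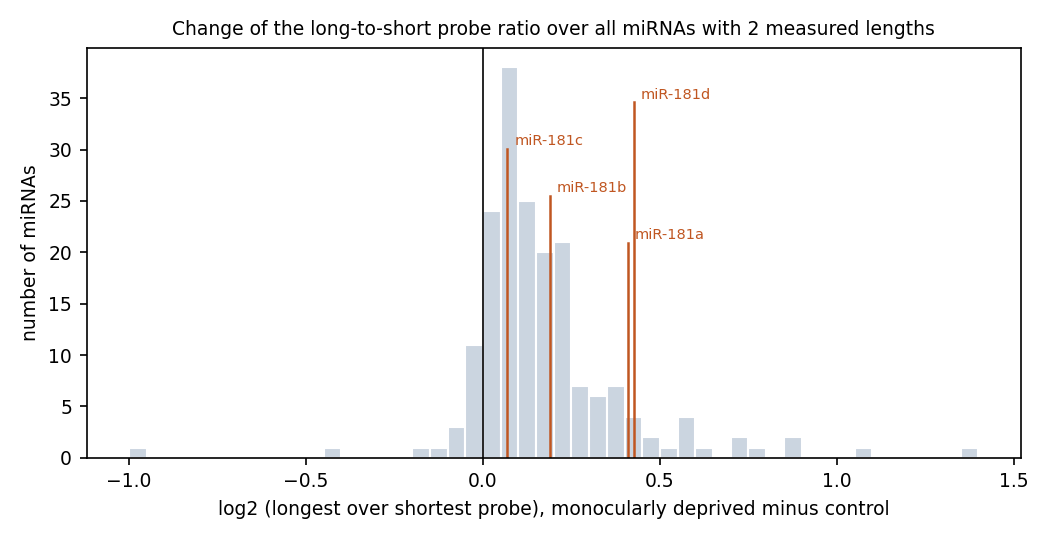
Number of miRNAs (vertical axis) by the change in log2 ratio of their longest over their shortest probe, monocularly deprived minus control (horizontal axis), for 185 miRNAs, with the 4 members as lines whose heights carry no value. Most of the miRNAs (167) lie above 0, and miR-181a (0.41) and miR-181d (0.43) lie on the upper side of the bulk.

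Across the 9 arrays miR-181d followed miR-181a and miR-181c did not. Pearson's r with miR-181a was 0.90 for miR-181d, 0.49 for miR-181b and 0.01 for miR-181c. After each group's mean was removed it was 0.84, 0.91 and -0.20. The arrays share slide, brightness and scaling, and these values are descriptions.

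Among the other 313 miRNAs compared, miR-320 (r = 0.95), miR-712 (0.92), miR-874 (0.90), miR-30a* (0.87) and miR-138* (0.86) were the most like miR-181a over the 9 arrays. By deviations from the group means the most like were miR-720 (0.98), miR-721 (0.97), miR-421 (0.96), miR-712 (0.94) and miR-689 (0.90). miR-712 was in both sets. The median r over all 313 was -0.09 by values and -0.05 by deviations.

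Other miRNAs reported to act on AMPA receptor subunits were set beside the family. Of 7 on the array (miR-92a, miR-124, miR-137, miR-186, miR-218, miR-223 and miR-501-3p), 6 were tested. After dark rearing limma called 0 of the 6, against 0.629% of all miRNAs tested, and 0 had an unadjusted p under 0.05, against 8.81%. After monocular deprivation 2 of 6 rose against control and 0 fell, a share close to the 33% called over all miRNAs. They were miR-92a, reported to act on GluA1 (log2 change 0.53, limma adjusted p = 0.0259), and miR-218, reported to act on GluA2 (0.29, adjusted p = 0.0195). In this comparison the gap between the longest and the shortest probe was wider by 0.24 for miR-92a and 0.09 for miR-218. The first lay in the upper quartile of that change, which began at 0.23. The part of probe length and slide in both calls was not tested. The median change of the 6 was 0.24, against -0.06 for the miR-181 members and 0.08 for all miRNAs tested. Between the 2 deprivations limma called 0, against 28.6% of all miRNAs, with 3 of 6 at an unadjusted p under 0.05, against 43.1%.

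Markers of cell types were read beside the members. A list's summed signal follows its brightest miRNAs, for the neuronal list miR-128 and miR-124, and does not weigh its miRNAs alike. All 5 neuronal miRNAs (miR-124, miR-128, miR-9, miR-137 and miR-138) were detected on all 9 arrays. Their summed scaled signal overlapped between monocularly deprived (57.6 to 81.3) and control cortex (70.0 to 70.9). On dark-reared arrays the sum was 67.8 to 68.8, below all control arrays. For dark-reared minus control limma called 0 of the 5, with 0.629% of all miRNAs tested called. For monocularly deprived minus control, limma called 1 of the 5, against 33% of all miRNAs tested. It was miR-9, which was lower (-0.50, limma adjusted p = 0.00223). The other 4 were at -0.0040 for miR-124, -0.05 for miR-128, -0.04 for miR-138 and 0.19 for miR-137, none called. Since miR-181a is abundant in lymphocytes, the leukocyte list matters most for it. Of its 5 miRNAs, 3 were detected on every array and miR-155 on none. Their summed scaled signal was 0.362 to 0.405 in control, 0.382 to 0.386 in dark-reared and 0.331 to 0.420 in monocularly deprived cortex, so the groups overlapped. Of the 4 tested, limma called 1 for monocularly deprived minus control, against 33% of all miRNAs tested. It was miR-150, a lymphocyte miRNA, which was lower (-0.77, limma adjusted p = 0.00123). The other 3 had positive values that were not called, 0.16 for miR-142-3p, 0.46 for miR-142-5p and 0.84 for miR-223, and the median of the list was 0.31. Against control, the gap between the longest and the shortest probe was wider in monocularly deprived cortex by 0.65 for miR-150 and 0.39 for miR-9. Both lay in the upper quartile of that change, which began at 0.23. The part of probe length and slide in these 2 calls was not tested. Nor was the part of these cells in the values of miR-181a.

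The choroid plexus and epithelial list (miR-200a, miR-200b, miR-204 and miR-429) summed to 0.703 to 0.778 in control, 0.932 to 1.23 in dark-reared and 0.851 to 0.918 in monocularly deprived cortex. Its groups did not overlap. Most of that sum was miR-204, which was called against control after neither deprivation (0.46 and 0.25, limma adjusted p = 0.239 and 0.171). For dark-reared minus control limma called 1 of the 4, against 0.629% of all miRNAs, miR-200b (0.76, adjusted p = 0.045). For monocularly deprived minus control it called 2 of 4, against 33% of all, miR-200b (0.49, adjusted p = 0.0186) and miR-429 (0.48, adjusted p = 0.0216). Both were higher, and miR-200a was not called (0.50 and 0.43). The unadjusted limma p against control was under 0.05 for 4 of 4 after dark rearing, against 8.81% of all miRNAs. After monocular deprivation it was for 3 of 4, against 43.4%. The red blood cell list (miR-144, miR-451 and miR-486) summed to 1.33 to 2.56 in control, 1.44 to 2.62 in dark-reared and 2.69 to 3.00 in monocularly deprived cortex, the last above all other arrays. Most of that sum was miR-451. Limma called 0 of 3 in each comparison. Over all miRNAs it called 0.629% (dark-reared minus control), 33% (monocularly deprived minus control) and 28.6% (monocularly deprived minus dark-reared). For monocularly deprived minus control 1 of 3 had an unadjusted p under 0.05, against 43.4% of all miRNAs tested. The vessel list summed to 1.71 to 1.92, 1.55 to 1.69 and 1.91 to 2.08 in the same order, and the oligodendrocyte list to 2.43 to 3.12, 2.50 to 3.49 and 3.04 to 3.69. Most of the vessel sum was miR-126-3p. In monocularly deprived minus control limma called 1 of the 3 vessel miRNAs and 1 of the 2 oligodendrocyte miRNAs, against 33% of all miRNAs tested. The vessel miRNA was miR-145, which was lower (-1.24, limma adjusted p = 0.00703), while miR-126-3p was at 0.18 and miR-143 at 0.12, neither called. miR-145 was detected on 8 of the 9 arrays, and its monocularly deprived mean was -6.32, with the floor at -7.88. The oligodendrocyte miRNA was miR-219, which was higher (0.59, limma adjusted p = 0.0393), with miR-338-3p at 0.19. For monocularly deprived minus dark-reared, limma called 1 of the 3 vessel miRNAs higher, miR-126-3p (0.31, adjusted p = 0.026). It called 1 lower, miR-145 (-1.15, limma adjusted p = 0.00999), against 28.6% of all miRNAs called in either direction. The part of these cell types in the values of the members was not tested.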

How the data were processed

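The deposited scanner files hold fluorescence intensity per spot, already background-subtracted by Agilent Feature Extraction 10.1.1.1 per the file headers, with no scaling between arrays by the authors. Per the labels, 100 ng of total RNA was labelled and hybridised at 64 °C. Outlier spots were left out. Spots were averaged per probe, then probes per miRNA, and each value was divided by the array's 75th percentile (computed from 433 probes bright enough on every array, 401 to 1022 intensity units), floored at the 1st percentile of detected miRNAs and put on the log2 scale. R 4.3.3 and limma 3.58.1 fitted 3 group means across the 9 arrays (residual degrees of freedom 6, prior 2.21), with Benjamini-Hochberg adjustment over the 318 miRNAs of a comparison. The single-probe fit used 428 probes. Ratios were tested by exact permutation.

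Same-numbered control and dark-reared arrays, which share a slide column, deviated together (r = 0.888, 0.324 and 0.815). Control replicate 2, however, deviated more like dark-reared replicate 3 (r = 0.615) than like dark-reared replicate 2. The pairing by number thus rests on the shared column and this check, not on the labels, and is unclear for replicate 2. The monocularly deprived numbers do not pair with either group (r = -0.384 to 0.213). Squared differences between replicates were at least 7.41 times those between spots, so none was counted as a duplicate. The members, the lists and the rule for named miRNAs (the members, their opposite strands, the AMPA receptor list and the 5 most like miR-181a) were chosen with earlier results of these data known. The limma code was tested on simulated data.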

Additional observations from a re-analysis of the deposited data

How the results depend on the processing

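Under 26 alternatives per comparison, no member was called for dark-reared minus control. Members were called under 3 settings elsewhere. Scaling on all miRNA probes called 2 against control and 3 between the deprivations (6 and 6 of 8 probes). The mean of log2 probe values and the total gene signal each called 1 between the deprivations.

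The following signs turned, each with its log2 change. With scaling on all miRNA probes, miR-181a and miR-181d went to -0.038 and -0.10 (dark-reared minus control), to 0.38 and 0.41 (monocularly deprived minus control) and, with miR-181c at 0.62, to 0.41 and 0.51 between the deprivations. The shorter probes of miR-181a and miR-181d went to 0.054 and 0.11 against control and 0.15 and 0.32 between the deprivations. With quantile normalization, dark-reared minus control gave -0.053 for miR-181a and -0.061 for miR-181d, and miR-181b gave -0.14 for monocularly deprived minus control and -0.070 between the deprivations. Without scaling, dark-reared minus control gave -0.13, -0.090 and -0.20 for miR-181a, miR-181c and miR-181d, and monocularly deprived minus control gave -0.22 and -0.15 for miR-181b and miR-181c. With normexp miR-181d went to -0.024 in the first comparison, miR-181b and miR-181c to -0.16 and -0.0065 in the second, and miR-181b to -0.12 in the third. Without bright background spots, added after seeing the data, normexp gave 0.0059 for miR-181b in the first. The mean of log2 probe values gave -0.0065 for miR-181d in the first and -0.015 for miR-181b in the second. Total gene signal gave miR-181b 0.018, -0.012 and -0.030. The cause was not tested.

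Leaving out 1 array called 0 members every time. Among uncalled changes, it moved dark-reared minus control to 0.0054 to 0.15 for miR-181a, -0.15 to 0.083 for miR-181b and -0.027 to 0.10 for miR-181d. It moved monocularly deprived minus control to -0.032 to 0.082 for miR-181b, -0.0086 to 0.13 for miR-181c and -0.18 to -0.063 for miR-181d, and the third comparison to -0.14 to -0.0081 for miR-181c and -0.073 to 0.16 for miR-181b. Total calls ranged from 0 to 3, 66 to 104 and 49 to 91, ratios without overlap from 0 to 4, 3 to 4 and 1 to 3, and member probes called from 1 to 2 between the deprivations.

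The counts over all miRNAs, 2, 105 and 91, became 1, 234 and 248 with scaling on all miRNA probes, 0, 36 and 37 without scaling, 0, 2 and 1 with normexp and 1, 6 and 3 with normexp without bright background spots. The first count became 1 with quantile normalization, the mean of log2 probe values, total gene signal, a lower floor or outlier spots kept, and 4 with miRNAs detected on all 9 arrays. Member probes called, 2 and 2, became 0 and 0 without scaling or with normexp and 1 and 1 with normexp without bright background spots. Ratios without overlap became 1 with the brightest probe (monocularly deprived minus control), and 0 and 0 with normexp, which also turned miR-181a over miR-181b to 0.02 and miR-181a over miR-181d to 0.28 against control, and miR-181a over miR-181d to 0.18 and miR-181b over miR-181c to -0.01 between the deprivations.

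With the replicate block the first count became 1, and with the block and only the 2 groups compared it was 1, 62 and 35, with 0 members called each time. The block changed no other call of a member or member probe. A slide block could not be fitted for monocular deprivation and was not run for dark rearing, where both groups share 1 slide.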
